A study of Rattus norvegicus with 16 samples.

Results

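Replication and S phase genes were followed in the hearts of rats aged 2 days of 2 strains: the Hypertrophic Heart Rat, HHR, with an enlarged heart by its labels, and a control of normal heart size, the Normal Heart Rat, NHR. Affymetrix Rat Gene ST arrays measured 16 hearts, 1 array per animal without pooling, in 4 groups of 4, made up of females and males of each strain. The labels name no drug or engineered allele, and the series calls the cardiac hypertrophy polygenic. Litter and dam were not given, so p-values measure the spread between these animals. The sources differ on the tissue, since one speaks of ventricles cut away from the atria and another of the whole heart. The set held 39 genes of DNA replication, chosen by name. Of these, 36 had a probe set that the platform annotation assigns to that gene alone, out of 14324 genes so named, and the brightest such probe set stood for each gene. Mcm3, Mcm4 and Pole2 were not analysed here. Only Rrm2 had a second probe set. All levels are the log2 expression values deposited by the authors. A difference of 1 is a doubling, and levels of different probe sets cannot be set against each other.

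A cell copies its DNA in steps. In G1 the origin recognition complex, Cdc6 and Cdt1 load the MCM helicase onto origins (licensing); at the start of S phase Cdc45, the GINS complex and Mcm10 turn it into a working helicase. Primase and DNA polymerases then copy the strands, held by the PCNA clamp that replication factor C (RFC) loads, while Fen1 and Lig1 join the lagging strand, and ribonucleotide reductase, thymidylate synthase and thymidine kinase supply the building blocks. Chek1 slows the cycle when forks stall. E2F factors drive the transcription of many of these genes. Heart muscle cells of the rat still divide in the first days after birth and then leave the cell cycle, whereas fibroblasts, endothelial cells and blood cells can divide later.

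The promoters of several members are shown because E2F binding is textbook knowledge for this group. Promoter windows from RefSeq (build GRCr8), running from 250 bases before to 50 bases after the annotated start, were given for 33 of the 39 members and not for Orc1, Cdc6, Mcm4, Gins4, Rrm2 and E2f1. The first set of E2F letters searched, on both strands, was TTGGCGC and the next was TTCCCGC. The remaining sets were TTCGCGC and, as the last one, TTGCCGC. In the palindromic forms, a match on one strand overlaps a match on the other. Of the 33 windows 23 (69.7%) held at least 1 match, against 9.52% of all 33469 promoters of that length and 13.7% of the 12381 promoters of genes with a single-gene probe set. A match was present in 9 of the 13 windows of members that were higher in HHR, in the window of the 1 that was lower, and in 11 of the 17 windows of members that did not pass the test. With the first pair of letter strings alone the counts were 8 of 13, 1 of 1 and 7 of 17. CCAAT, searched on both strands, was found in 57.6% of the members' windows and 37.5% of all promoters, and TTTGAA in 12.1% and 18.3%. The 8 stretches printed here run 5′ to 3′ from 80 bases before the start to 6 bases from it, with the E2F letters in capitals. The first 6 belong to members higher in HHR, and the last, Mcm7 and Tyms, to members that did not pass.
Chek1 (chr8:44629838-44629923, minus strand): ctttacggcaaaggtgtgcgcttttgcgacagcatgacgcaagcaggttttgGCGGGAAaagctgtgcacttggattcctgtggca
Prim1 (chr7:1031382-1031467, plus strand): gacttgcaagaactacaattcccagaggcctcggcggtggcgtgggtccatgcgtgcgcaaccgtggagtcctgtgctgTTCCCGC
Mcm2 (chr4:122918089-122918174, minus strand): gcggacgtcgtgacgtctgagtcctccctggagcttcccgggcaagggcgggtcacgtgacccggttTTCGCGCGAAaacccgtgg
Mcm5 (chr19:13488733-13488818, plus strand): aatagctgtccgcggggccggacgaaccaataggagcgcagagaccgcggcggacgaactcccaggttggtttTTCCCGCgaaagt
Mcm6 (chr13:42404347-42404432, minus strand): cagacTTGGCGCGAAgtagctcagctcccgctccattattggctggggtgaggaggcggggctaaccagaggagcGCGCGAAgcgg
Gins1 (chr3:160184840-160184925, plus strand): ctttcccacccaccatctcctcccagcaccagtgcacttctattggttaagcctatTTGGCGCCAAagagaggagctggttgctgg
Mcm7 (chr12:22163173-22163258, minus strand): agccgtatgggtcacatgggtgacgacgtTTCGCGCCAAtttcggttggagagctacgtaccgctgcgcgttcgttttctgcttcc
Tyms (chr9:120776078-120776163, minus strand): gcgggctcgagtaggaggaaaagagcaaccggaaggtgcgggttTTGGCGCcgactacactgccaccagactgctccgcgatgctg
Matches near the start were present both in members that passed and in members that did not. A match describes letters and not a bound site.

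The deposited, already processed values had array medians of 7.19 to 7.28, which does not show that the raw signal was alike. Along the leading component of variation within groups, NHR female 3, NHR female 4 and NHR male 4 scored 14.4, 15.1 and 22.6. NHR females 1 and 2 scored -16.9 and -12.6, NHR males 1, 2 and 3 -11.1, -13.2 and 1.74, and HHR arrays -3.72 to 7.48. Each group was centred first, so its scores balance, and the NHR arrays were spread to both sides. NHR female 3, NHR female 4 and NHR male 4 are called the NHR arrays apart, and results that rest on them are given with and without them. Leaving out the high-scoring side only was a choice. For each array the deviation of every gene from its mean over the 16 arrays was taken, and the median over the 36 members was computed. It ran from -0.01 to 0.20 in HHR, from -0.10 to 0.00 on the other 5 NHR arrays, and from -0.19 to -0.10 on the NHR arrays apart. The lowest of the 16 values fell on one of those 3 arrays in 21 of the 36 members, among them all 14 that were higher in HHR. Those 14 were chosen for lower levels in NHR, which favours a lowest value on an NHR array. The sources used here name no processing batch.

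**Figure D1:**
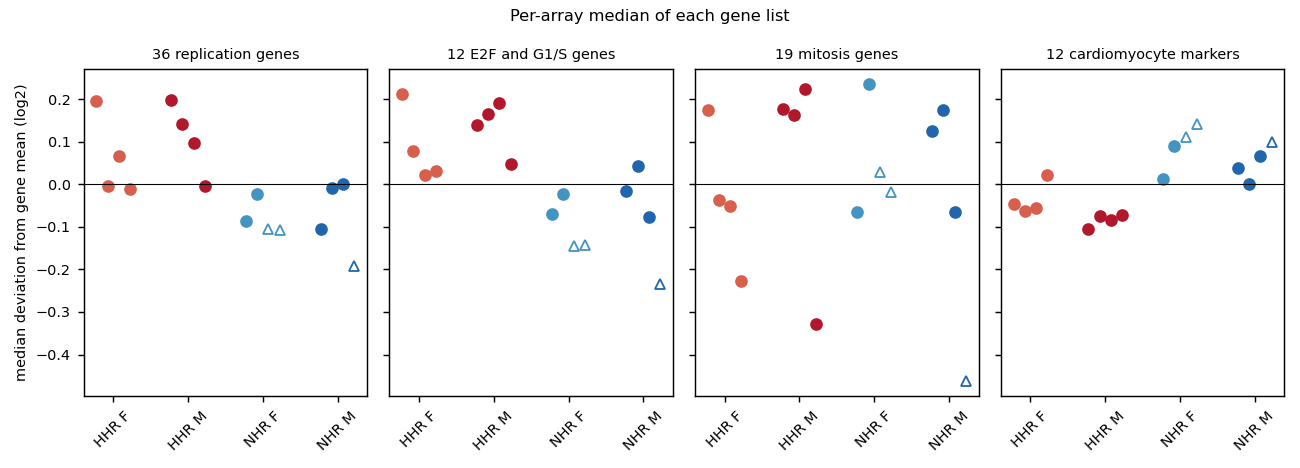
Median deviation of a gene list from each gene's mean over the 16 arrays (log2, vertical axis) for each array, by group (horizontal axis; F female, M male); open triangles are the NHR arrays apart. For the 36 replication genes HHR ran from -0.01 to 0.20 and NHR from -0.19 to 0.00, so the ranges overlapped. For the 19 mitosis genes HHR ran from -0.33 to 0.22 and NHR from -0.46 to 0.24.

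The main question was how the replication steps differ between the strains. Averaged over the sexes, 14 of the 36 measured members were higher in HHR, 1 was lower and 21 did not pass (limma, Benjamini-Hochberg over all 27342 probe sets, adjusted p below 0.05). Over all probe sets 9.64% were higher and 11% lower, 20.7% in all, and over the brightest probe sets of the named genes 11.8% and 11.2%. The median difference of HHR minus NHR was 0.17 over the members and -0.03 over all probe sets, and 28 of the 36 members had a positive difference. By step, 2 of 5 licensing genes, 5 of 10 helicase genes, 4 of 13 polymerase, clamp and ligation genes, 1 of 5 nucleotide genes and 2 of 3 checkpoint and control genes were higher; the 1 lower gene belonged to the polymerase step. In 4 members all 8 HHR arrays lay above all 8 NHR arrays, as they did in 1.95% of probe sets, and in 0 members all lay below (2.2% of probe sets). Without the NHR arrays apart 8 members were higher and 1 was lower (6.76% and 7.86% of all probe sets), with a median of 0.13. By step, in the same order, 0, 4, 3, 0 and 1 were then higher. The differences were small, with the largest at 1.58-fold.

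**Figure D2:**
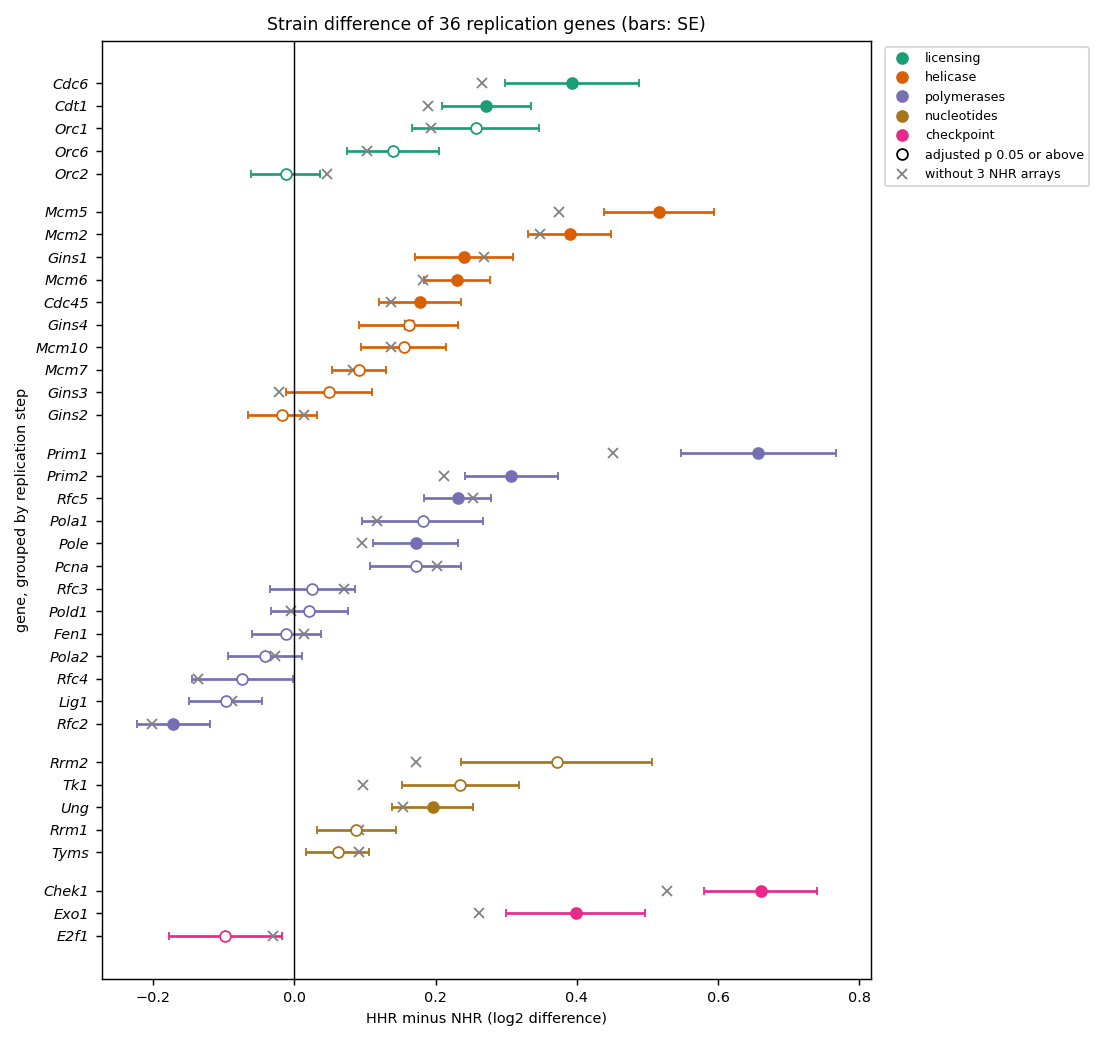
HHR minus NHR (log2, horizontal axis) for the 36 members grouped by step (vertical axis), with model SE; filled points passed the test and grey crosses give the difference without the NHR arrays apart. Chek1 and Prim1 lay farthest to the right, at 0.66 each, and Rfc2 farthest to the left, at -0.17.

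Among licensing genes the loaders differed most. Cdc6, the ATPase that helps to load the helicase, ran from 8.73 through a median of 9.01 to 9.42 in HHR and from 8.43 through 8.69 to 8.96 in NHR. The ranges overlapped, with 6 of 8 HHR arrays above the highest NHR array, and the difference was 0.39 (SE 0.09, limma adjusted p = 0.00699). Its partner Cdt1 ran from 8.11 through 8.28 to 8.45 in HHR and from 7.87 through 8.00 to 8.24 in NHR, a difference of 0.27 (SE 0.06, adjusted p = 0.00576, 4 of 8 arrays). Neither passed without the NHR arrays apart, at 0.27 (adjusted p = 0.0825) and 0.19 (adjusted p = 0.0663). The subunits of the origin recognition complex did not pass. Orc1, the subunit whose level follows the cell cycle in many cells, differed by 0.26 (SE 0.09, adjusted p = 0.0526), Orc6 by 0.14 (SE 0.07, adjusted p = 0.144) and Orc2 by -0.01 (SE 0.05, adjusted p = 0.894). Orc1 passed without HHR female 2, HHR male 3, HHR male 4 or NHR female 2 (adjusted p = 0.0236 to 0.038), and also with the filter on dim probe sets, on single-gene probe sets alone and after quantile, median or cyclic loess scaling (adjusted p = 0.0342 to 0.043). Its difference was 0.19 (adjusted p = 0.253) without the NHR arrays apart. Orc6 passed without NHR male 3 (adjusted p = 0.0368).

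Helicase subunits gave some of the clearest separations. Mcm5 measured 10.29, 10.01, 10.09 and 10.13 in HHR females 1 to 4 and 10.41, 10.30, 10.24 and 10.07 in HHR males. In NHR it measured 9.84, 9.84, 9.47 and 9.47 in females 1 to 4 and 9.75, 9.82, 9.80 and 9.40 in males. Every HHR array was above every NHR array, and the low NHR values were those of the NHR arrays apart. The difference was 0.52 (SE 0.08, limma adjusted p = 2.4e-04, 1.43-fold), and 0.37 (SE 0.06, adjusted p = 0.00113) without those arrays. Mcm2 measured 10.66, 10.31, 10.50 and 10.41 in HHR females 1 to 4, 10.52, 10.48, 10.31 and 10.49 in HHR males, 10.14, 10.13, 9.84 and 10.16 in NHR females and 10.07, 10.03, 10.18 and 10.03 in NHR males. Again the strains did not overlap, and NHR female 3 was the low value among NHR females. Mcm2 rose by 0.39 (SE 0.06, adjusted p = 2.5e-04), and by 0.35 (adjusted p = 0.0019) without the NHR arrays apart. Mcm6 rose by 0.23, with 7 of 8 HHR arrays above every NHR array (SE 0.05, adjusted p = 0.0023), and by 0.18 (adjusted p = 0.018) without those arrays. Mcm7, the fourth measured subunit of the same ring, had the narrow ranges of 9.76 to 9.96 in HHR and 9.71 to 9.86 in NHR, with a difference of 0.09 (SE 0.04, adjusted p = 0.104).

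Of the factors that complete the helicase, Gins1 ran from 7.62 to 8.30 in HHR and from 7.60 to 7.94 in NHR. It rose by 0.24, with 4 of 8 HHR arrays above every NHR array (SE 0.07, limma adjusted p = 0.0209). It passed without the NHR arrays apart as well (0.27, adjusted p = 0.0371, 7 of 8 arrays). Cdc45, which travels with MCM at the fork, was higher by 0.18 (SE 0.06, adjusted p = 0.0383, 4 of 8 arrays), with overlapping ranges. That call was lost without the NHR arrays apart (0.14, adjusted p = 0.145) and without any 1 of 9 arrays (adjusted p = 0.0526 to 0.084): HHR females 1 and 3, HHR males 1, 2 and 3, NHR females 1 and 3, and NHR males 1 and 4. The other GINS subunits did not pass, with differences of 0.16 in Gins4 (adjusted p = 0.115), 0.05 in Gins3 (adjusted p = 0.622) and -0.02 in Gins2 (adjusted p = 0.851). Mcm10, which helps to start the helicase, differed by 0.15 (SE 0.06, adjusted p = 0.0766) and passed without HHR male 4 or NHR male 3 (adjusted p = 0.0296 and 0.0353), and after median centring (adjusted p = 0.039).

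**Figure D3:**
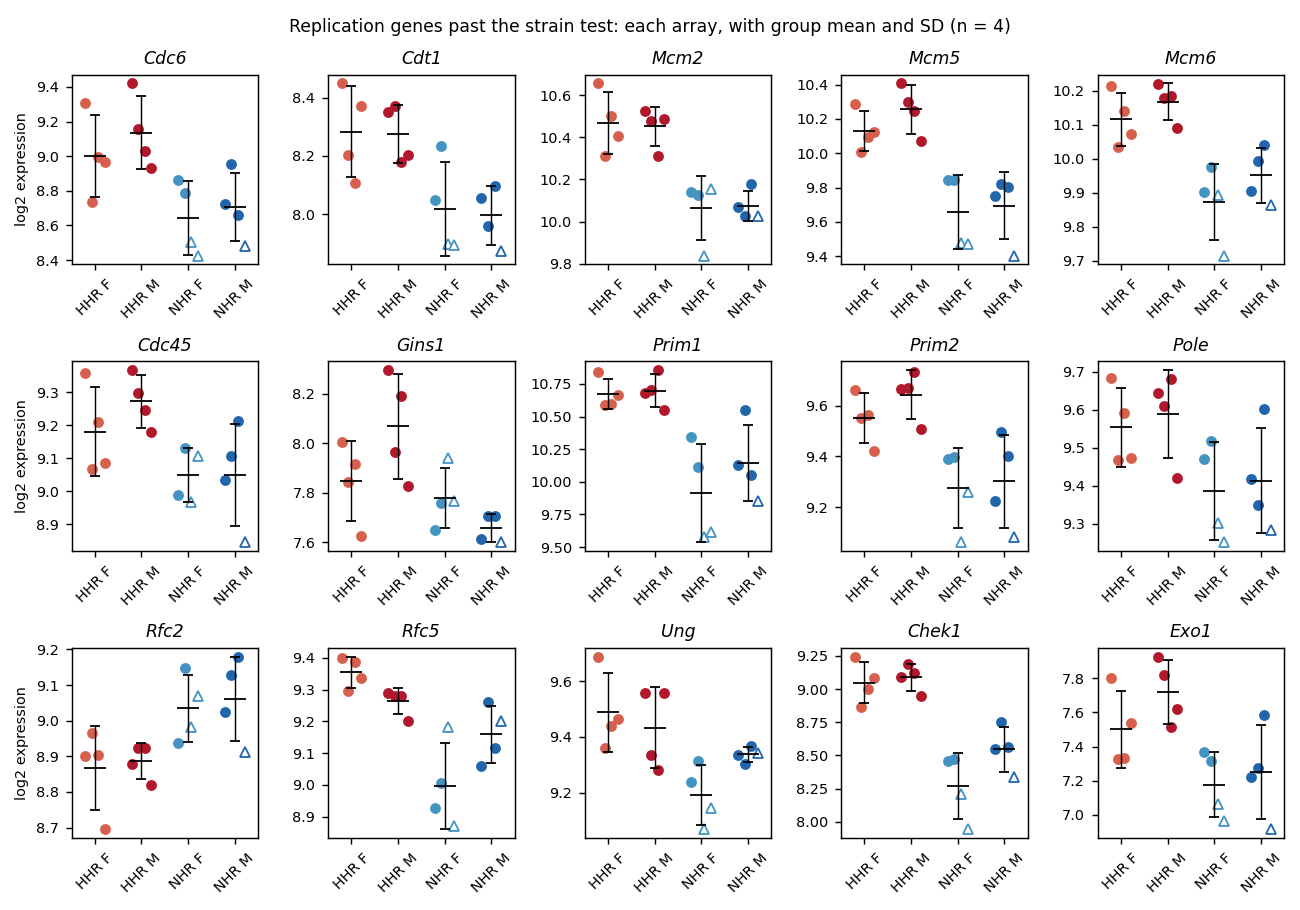
Log2 expression (vertical axis, scaled per gene) of the 15 members past the strain test on each array, by group (horizontal axis; F female, M male), with the mean and SD of 4 arrays; open triangles are the NHR arrays apart. In Mcm2, Mcm5, Prim1 and Chek1 the lowest HHR array lay above the highest NHR array; in Rfc2 HHR was lower.

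At the polymerases the primase subunits both rose. Prim1, the catalytic subunit that lays the RNA primer, measured 10.84, 10.59, 10.59 and 10.66 in HHR females 1 to 4 and 10.68, 10.70, 10.86 and 10.55 in HHR males. In NHR it measured 10.34, 10.11, 9.58 and 9.61 in females 1 to 4 and 10.13, 10.55, 10.05 and 9.86 in males. HHR was tight (SD 0.11, n = 8) and NHR wide (SD 0.34, n = 8), and the lowest HHR array, at 10.549, stood just above the highest NHR array, at 10.548. The difference was 0.66 (SE 0.11, limma adjusted p = 5.6e-04, 1.58-fold), and 0.45 (SE 0.08, adjusted p = 0.00305) without the NHR arrays apart. Prim2, the regulatory primase subunit, rose by 0.31, with 7 of 8 HHR arrays above every NHR array (SE 0.07, adjusted p = 0.0033), and by 0.21 (adjusted p = 0.0254) without those arrays. The polymerase alpha subunits bound to the primase did not pass, with 0.18 in Pola1 (SE 0.09, adjusted p = 0.149) and -0.04 in Pola2 (SE 0.05, adjusted p = 0.63); Pola1 passed without HHR male 4 (adjusted p = 0.0224).

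The main fork polymerases and their clamp showed small or unsettled differences. Pole, the catalytic subunit of leading strand polymerase epsilon, lay just inside the threshold at 0.17 (SE 0.06, limma adjusted p = 0.0499, 4 of 8 arrays). It was 0.10 (adjusted p = 0.342) without the NHR arrays apart. The call was also lost after quantile normalization (adjusted p = 0.0707) and with array weights (adjusted p = 0.0761). Leaving out any 1 of 12 arrays ended it (adjusted p = 0.0504 to 0.105), namely the HHR females, HHR males 1, 2 and 3, NHR females 3 and 4, or NHR males 1, 2 and 4. Just outside the threshold were Tk1 (adjusted p = 0.0513) and Orc1. Pcna, the sliding clamp, differed by 0.17 (SE 0.06, adjusted p = 0.0668, 5 of 8 arrays) and passed without HHR male 4 or NHR male 2 (adjusted p = 0.0455 and 0.0428), with the filter on dim probe sets (adjusted p = 0.0481), after median centring (adjusted p = 0.0428) and with array weights (adjusted p = 0.0252). Pold1, the catalytic subunit of lagging strand polymerase delta, differed by 0.02 (adjusted p = 0.826), Fen1, the flap nuclease, by -0.01 (adjusted p = 0.904), and Lig1, the replicative ligase, by -0.10 (adjusted p = 0.20).

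The clamp loader gave differences of both signs. Rfc5 ran from 9.20 through 9.29 to 9.40 in HHR and from 8.87 through 9.09 to 9.26 in NHR, a rise of 0.23 (SE 0.05, limma adjusted p = 0.00263, 7 of 8 arrays). It was as large without the NHR arrays apart (0.25, adjusted p = 0.00249). Rfc2 was the only measured member past the test in the other direction: it ran from 8.70 through 8.90 to 8.97 in HHR and from 8.91 through 9.05 to 9.18 in NHR. Its level fell by 0.17, with 5 of 8 HHR arrays below every NHR array (SE 0.05, adjusted p = 0.0257), and by 0.20 (adjusted p = 0.0279) without the NHR arrays apart. The Rfc2 call was lost after centring each array on its median (-0.15, adjusted p = 0.0596), and without HHR female 4, HHR male 4, NHR female 2 or NHR male 3 (adjusted p = 0.051 to 0.0577). Rfc3 and Rfc4 differed by 0.03 (adjusted p = 0.81) and -0.07 (adjusted p = 0.515).

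Of the genes of nucleotide supply and uracil removal, only Ung passed. Ung, the glycosylase that takes uracil out of new DNA, ran from 9.28 through 9.45 to 9.69 in HHR and from 9.07 through 9.31 to 9.37 in NHR, a difference of 0.20 (SE 0.06, limma adjusted p = 0.0216, 5 of 8 arrays). It was 0.15 (adjusted p = 0.132) without the NHR arrays apart. With array weights it was 0.16 (adjusted p = 0.0516). Rrm2, the subunit of ribonucleotide reductase made in S phase, had the largest difference of this step, 0.37, but also the largest SE, 0.13 (adjusted p = 0.0599). Rrm2 was lowest on NHR male 4 (9.96) and NHR female 3 (10.45), followed by HHR male 4 (10.56), NHR female 4 (10.62) and HHR female 4 (10.65), so that all NHR arrays apart were among its 5 lowest, and its second probe set gave 0.31 (adjusted p = 0.0966). It passed without HHR female 4, HHR male 4, NHR female 2 or NHR male 2 (adjusted p = 0.0175 to 0.0409), with the filter on dim probe sets (adjusted p = 0.0464) and on single-gene probe sets alone (adjusted p = 0.0475), and was 0.17 (adjusted p = 0.371) without the NHR arrays apart. Tk1, thymidine kinase of the salvage route, differed by 0.24 (SE 0.08, adjusted p = 0.0513), but by 0.10 (SE 0.06, adjusted p = 0.347) without the NHR arrays apart. It passed without HHR male 4, NHR female 2, NHR male 1 or NHR male 2 (adjusted p = 0.023 to 0.0473), and with the filter on dim probe sets, on single-gene probe sets alone, after quantile, median or cyclic loess scaling, and with robust moderation (adjusted p = 0.033 to 0.0477). Tyms, which makes thymidylate, differed by 0.06 (adjusted p = 0.358). Rrm1, the large reductase subunit, differed by 0.09 (adjusted p = 0.293) at a mean level of 5.96, below the 40th percentile of all values, 6.57.

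Chek1, the checkpoint kinase, had the smallest adjusted p of the members. In HHR it ran from 8.87 through a median of 9.09 to 9.24, and HHR males 1 to 4 measured 9.09, 9.19, 9.12 and 8.95. In NHR it measured 8.46, 8.47, 8.21 and 7.94 in females 1 to 4 and 8.55, 8.75, 8.56 and 8.33 in males. The strains did not overlap. The difference was 0.66 (SE 0.08, limma adjusted p = 3.6e-05, 1.58-fold), and 0.53 (SE 0.07, adjusted p = 1.7e-04) without the NHR arrays apart, again with 8 of 8 HHR arrays above. Exo1, an exonuclease of mismatch repair and end resection, ran from 7.33 through 7.58 to 7.93 in HHR and from 6.91 through 7.25 to 7.59 in NHR, a difference of 0.40 (SE 0.10, adjusted p = 0.008, 4 of 8 arrays); it was 0.26 (adjusted p = 0.0812) without the NHR arrays apart. E2f1, a transcription factor that drives entry into S phase, differed by -0.10 (SE 0.08, adjusted p = 0.429).

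Members of one complex were then compared within each array, because a ratio cancels any shift common to an array. For 5 complexes, all 27 pairs of measured subunits were formed; the set of complexes was chosen after the values had been seen. In an exact permutation test over all 12870 splits of the 16 arrays (two-sided, adjusted over the 27 ratios), 14 ratios differed between the strains, and 13 of these also without the NHR arrays apart, where Rfc3 to Rfc5 was lost (adjusted exact p = 0.0531) and Gins1 to Gins3 gained (adjusted exact p = 0.00699). In the MCM ring 5 of 6 ratios differed. The log2 ratio of Mcm5 to Mcm7 differed by 0.42 between the strains, with an SD of 0.09 in HHR and 0.18 in NHR (n = 8 each; exact permutation p = 1.6e-04, the smallest such a test can give, adjusted p = 0.00105, 8 of 8 arrays). The ratio of Mcm2 to Mcm7 differed by 0.30 (adjusted exact p = 0.00105, 8 of 8 arrays) and that of Mcm6 to Mcm7 by 0.14 (adjusted exact p = 0.0014, 7 of 8 arrays), whereas Mcm2 to Mcm5 gave -0.13 (adjusted exact p = 0.161). In polymerase alpha-primase 4 of 6 ratios differed, among them Prim1 to Pola2 (0.70, adjusted exact p = 0.0014, 7 of 8 arrays) and Prim1 to Prim2 (0.35, adjusted exact p = 0.0028, 3 of 8 arrays). In RFC 4 of 6 differed, with Rfc2 to Rfc5 at -0.40 (adjusted exact p = 0.00105, 8 of 8 arrays). In GINS only Gins1 to Gins2 did (0.26, adjusted exact p = 0.0239, 4 of 8 arrays), and in the origin recognition complex 0 of 3 (unadjusted exact permutation p at least 0.0584). The other 13 ratios did not pass. The ratios share subunits and follow from the differences of the single genes, so their count is not separate evidence. Of all probe sets 20.7% differed between the strains, and how many pairs of other genes would pass was not computed. A difference in ratio assumes that the probe sets of both genes respond alike to a change in RNA.

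**Figure D4:**
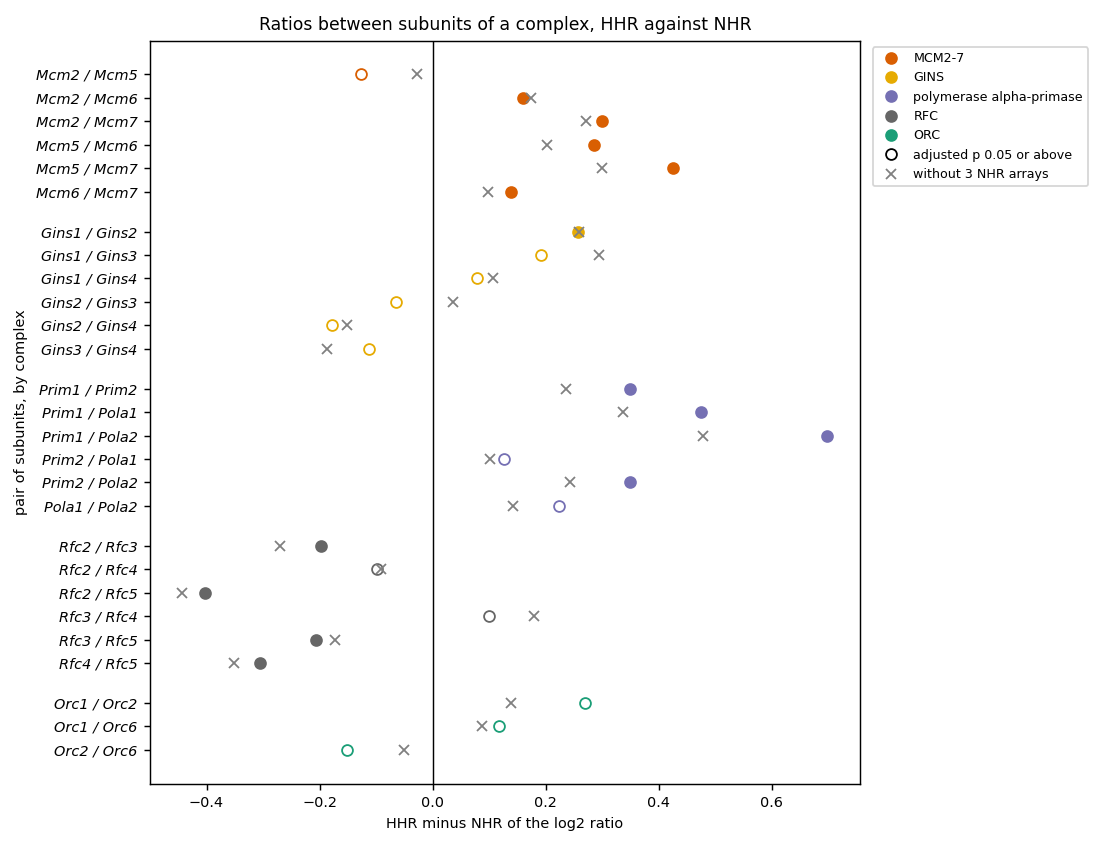
HHR minus NHR of the log2 ratio (horizontal axis) for the 27 pairs of subunits in 5 complexes (vertical axis); filled points had an adjusted exact permutation p below 0.05 and grey crosses leave out the NHR arrays apart. Mcm5 over Mcm7 stood at 0.42, Prim1 over Pola2 at 0.70 and Rfc2 over Rfc5 at -0.40.

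The strain comparison was also made in each sex. In males 5 members were higher in HHR (Mcm2, Mcm5, Gins1, Prim2 and Chek1) and 0 lower, against 2.03% and 1.98% of all probe sets; in females 7 were higher (Mcm2, Mcm5, Mcm6, Prim1, Rfc5, Ung and Chek1) and 0 lower, against 5.78% and 6.21%. At an unadjusted limma p below 0.05, 1 member, Rfc2, was lower in males and 2, Rfc2 and Rfc4, in females. Of all 27342 probe sets 2862 and 4128 were. The count in males was 2 without HHR male 1 and 3 without HHR male 2, HHR male 3, NHR male 1 or NHR male 4, but 8 with the filter on dim probe sets and 8 with array weights. In females it was 3 without the NHR arrays apart. That setting leaves NHR females 1 and 2 against HHR females 1 to 4, so the smaller group can also lower the count. For these changed settings the shares over all probe sets are not given here. The difference had the same sign in both sexes in 31 of 36 members. It was positive in both in 25 of 36 members, against 7379 of all 27342 probe sets. The 14 members that were higher over both sexes were all positive in each sex. They were chosen on the average of the sexes, which favours a shared sign, so this is no separate evidence. Chek1 differed by 0.54 (SE 0.11) in males and 0.78 (SE 0.11) in females, Prim1 by 0.55 (SE 0.16) and 0.76 (SE 0.16), and Mcm5 by 0.56 (SE 0.11) and 0.47 (SE 0.11).

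For a strain difference that depended on sex, 0 members passed the limma interaction test (0% of probe sets). At an unadjusted p below 0.05 there were 4 members, against 1390 of all 27342 probe sets. The 4 members were Gins1 (0.41 in males and 0.07 in females), Rfc4 (0.09 and -0.23), Fen1 (0.10 and -0.12) and Rfc5 (0.10 and 0.36). The smallest adjusted p over the members was 0.969. Between males and females averaged over the strains, 0 members passed (limma, where 0.011% of probe sets did), with a smallest adjusted p of 0.785. At an unadjusted p below 0.05 there were also 0 members, against 1749 of all 27342 probe sets.

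**Figure D5:**
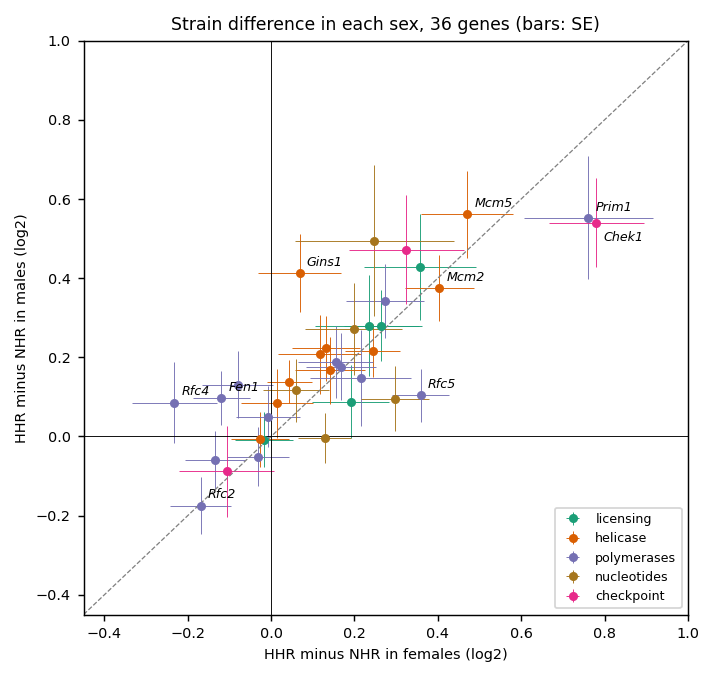
HHR minus NHR (log2) in females (horizontal axis) and males (vertical axis) for the 36 members, with SE; the dashed line marks equal differences. Mcm2, Mcm5, Prim1 and Chek1 lay in the upper right in both sexes, Gins1 above the line (0.41 in males, 0.07 in females) and Rfc5 below it (0.10 and 0.36).

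Other genes of DNA replication and S phase, from 6 lists written with earlier results of these data known, gave 19 higher and 2 lower of 61 measured, with a median of 0.11 (11 higher and 2 lower without the NHR arrays apart, median 0.07). Over all probe sets 9.64% were higher and 11% lower (6.76% and 7.86% without those arrays). Of 9 further licensing and firing genes 3 were higher, including Cdc7, the kinase that fires origins (0.30, SE 0.07, limma adjusted p = 0.00567), and Donson, a fork protection and assembly factor (0.23, SE 0.05, adjusted p = 0.00645). Of 17 fork and strand synthesis genes 4 were higher, including the small polymerase epsilon subunits Pole3 (0.46, SE 0.05, adjusted p = 9.7e-06, 8 of 8 arrays) and Pole4 (0.54, SE 0.10, adjusted p = 0.00114). Of 8 nucleotide genes 4 were higher, including Dtymk, the thymidylate kinase (0.32, SE 0.06, adjusted p = 9.1e-04), and Shmt1, which feeds one-carbon units to thymidylate (0.25, SE 0.06, adjusted p = 0.00553). None of these 3 lists had a gene past the test in the other direction (limma; at an unadjusted p below 0.05, 0, 0 and 1 gene were lower). Of 8 chromatin assembly and maintenance genes 1 was higher, the assembly factor subunit Chaf1b (0.29, SE 0.08, adjusted p = 0.016), and 1 lower, the histone chaperone subunit Ssrp1 (-0.17, SE 0.04, adjusted p = 0.00728), a count near the share over all probe sets.

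Of 12 E2F and G1/S genes 4 were higher and 1 lower. The cyclin E genes, whose products start S phase with Cdk2, were Ccne2 (0.55, SE 0.07, limma adjusted p = 2.8e-05) and Ccne1 (0.60, SE 0.08, adjusted p = 8.9e-05), and neither gene's strains overlapped. Rb1, the retinoblastoma protein that holds E2F in check, fell by 0.31, with 7 of 8 HHR arrays below every NHR array (SE 0.06, adjusted p = 8.6e-04). Of 7 checkpoint partners 3 were higher and 0 lower (0 also at an unadjusted p below 0.05), including Wee1, the kinase that restrains CDKs (0.48, SE 0.11, adjusted p = 0.0059), and Rad1, a subunit of the checkpoint clamp (0.29, SE 0.08, adjusted p = 0.0122). Without the NHR arrays apart the genes higher numbered 2 for licensing and firing, 3 for the fork, 2 for nucleotides, 0 for chromatin, 3 for E2F and G1/S control and 1 for the checkpoint partners, whose median moved from 0.03 to -0.0018. Of single genes, Wee1 then stood at 0.25 (adjusted p = 0.0212) and Pole4 at 0.35 (adjusted p = 0.00608), and the calls of Rad1 (adjusted p = 0.066) and Chaf1b (adjusted p = 0.107) were lost.

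Mitosis genes were set beside the replication genes. Of 24 listed, 19 were measured, without Cenpe, Cenpf, Birc5, Mki67 and Anln. Among the 19, 1 was higher and 1 lower, counts not above the shares over all probe sets (9.64% and 11%). Bub1, a spindle checkpoint kinase, was higher (0.37, SE 0.12, limma adjusted p = 0.0453), but at 0.19 the call was lost when the NHR arrays apart were left out (adjusted p = 0.328). Ccnb2, a mitotic cyclin, was lower (-0.26, SE 0.08, adjusted p = 0.0326). The median was 0.01, against 0.17 for the replication genes, and -0.05 against 0.13 without the NHR arrays apart. In males it was 0.12 against 0.16, and in females -0.08 against 0.15. The difference between the lists was not tested. The per-array median of the mitosis list was lowest on NHR male 4 (-0.46), HHR male 4 (-0.33) and HHR female 4 (-0.23). The strains overlapped in the plot of array medians, and for the replication genes they overlapped over a narrower range.

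Markers of the cells in the tissue were compared between the strains in the same fit, in which 9.64% of all probe sets were higher and 11% lower. The mean level over the 12 cardiomyocyte markers was 13.07 to 13.26 per array, with Pln, the brake on the calcium pump, the brightest at a mean of 13.83. Of the 12 markers 7 were lower in HHR, including Mybpc3 (-0.25, SE 0.04) and Ttn (-0.24, SE 0.04), and 0 were higher (limma, 0 also at an unadjusted p below 0.05). Their mean level ran from 13.07 to 13.16 in HHR, from 13.16 to 13.26 in NHR and from 13.24 to 13.26 on the NHR arrays apart. Of 8 fibroblast markers 4 were higher, including Col1a2 (0.19) and Tcf21 (0.37), and 0 lower. Of the 8 differences 6 were positive, and the lowest was -0.16. Mean levels were 10.69 to 11.02 in HHR, 10.50 to 10.79 in NHR and 10.50 to 10.78 on the NHR arrays apart. Of 6 endothelial markers 4 were lower, including Cldn5 (-0.41) and Tie1 (-0.22), at 10.24 to 10.39 in HHR and 10.39 to 10.59 in NHR. In that list 0 were higher, but 1 was at an unadjusted limma p below 0.05. Of 9 erythroid markers 2 were higher (Hbb, 0.45, and Ahsp, 0.46) and 2 lower (Epb42, -0.55, and Slc4a1, -0.34), at 8.23 to 8.53 and 8.19 to 8.61. Of 9 leukocyte markers 1 was higher (C1qb, 0.38) and 1 lower (Ptprc, -0.27), at 7.42 to 7.82 and 7.44 to 7.82. Of 5 epicardial markers 2 were higher (Aldh1a2, 0.48, and Gpm6a, 0.31), at 7.90 to 8.23 and 7.55 to 8.01, and of 6 mural markers 1 was lower (Myh11, -0.33), at 10.08 to 10.25 and 10.01 to 10.27. The mural list went both ways, with 4 of 6 differences positive, a median of 0.02 and 2 markers higher at an unadjusted limma p below 0.05. Of 5 atrial markers 3 were higher (including Bmp10, 1.05, and Nppa, 0.34), at 10.39 to 11.31 and 9.85 to 10.61. With so few markers a list, the single leukocyte and mural calls lay near the share over all probe sets. When the NHR arrays apart were left out, 4 cardiomyocyte markers were lower and 3 fibroblast markers higher, and the calls of Myh11 (adjusted p = 0.0942) and Ahsp (adjusted p = 0.0628) were lost. The part of cell composition in the replication results was not tested, and in whole tissue more cycling cells cannot be told apart from more RNA per cell.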

How the data were processed

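RNA from 16 hearts was hybridised to Affymetrix Rat Gene 1.0 ST arrays, 1 per animal. The authors deposited 1 log2 expression value per probe set and array, and the submitters' processing notes name RMA. Genes were named through the platform annotation: of 27342 probe sets 15097 carry 1 symbol, 323 several and 11922 none. A model of 4 group means was fitted to all probe sets with limma 3.58.1 (R 4.3.3), with Benjamini-Hochberg adjustment at 0.05 over all of them. Contrasts were strain, strain in each sex, their interaction, and sex. The fit was tested on simulated data with noise drawn independently for each probe set. That test does not cover variation that many probe sets of an array share. Subunit ratios used exact permutation tests. The number of arrays limits the precision.

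The labels do not say that replicate numbers pair animals, and not every same-numbered pair correlated over 0.1, so the main fit had no block. Alternatives covered scaling, filters, weights, the threshold and left-out arrays. Members and gene lists were chosen with earlier results of these data known. The rule for named genes was every member past a test and the extremes of each step, and from each other list up to 2 called genes per direction with the smallest adjusted p, plus the brightest for cell types. Members that did not pass are also named, chosen after their values were seen.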

Additional observations from a re-analysis of the deposited data

Results flagged for a closer look

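In 11 of 144 groups of 4 arrays, 1 array stood apart from the other 3 (Dixon's criterion on the gap over the range); chance alone marks about 1 group in 20. On the NHR arrays apart these were Gins3 on NHR female 3 (7.71, others 7.90 to 7.94), Mcm2 on NHR female 3 (9.84, others 10.13 to 10.16), Mcm5 on NHR male 4 (9.40, others 9.75 to 9.82) and Rrm2 on NHR male 4 (9.96, others 10.69 to 10.83). On HHR male 4 they were Lig1 (9.89, others 10.11 to 10.12), Pcna (11.04, others 11.23 to 11.24), Rfc5 (9.20, others 9.28 to 9.29) and Rrm2 (10.56, others 11.17 to 11.28). Pold1 was low on HHR female 4 (9.02, others 9.27 to 9.32). High values were those of Orc1 on NHR female 2 (7.53, others 7.27 to 7.30) and Orc6 on NHR male 3 (8.27, others 7.89 to 7.93).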

How the results depend on the processing

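Over the alternatives tried, gene results kept their side of the threshold in 892 cases, 39 newly passed and 40 no longer passed. Of results past the threshold in either fit, 0 changed sign. Among the 892, members that did not pass could change sign, as Orc2 did (-0.03 to 0.05). Members higher in HHR numbered 14, 8 without the NHR arrays apart, and 12 to 20 when 1 array was left out. The count lower was 1, and 0 after median centring or at an adjusted p of 0.01 (0 to 1 with 1 array left out). In males 5 were higher, but 8 with the filter on dim probe sets, 8 with array weights, 1 at 0.01 and 2 to 7 with 1 array left out. In females 7 were higher, but 4 at 0.01 and 3 without the NHR arrays apart (5 to 8 with 1 array left out). Probe sets past the threshold fell from 5651 to 2893 at 0.01, and subunit ratios from 14 to 9. Deviations of same-numbered animals correlated over 0.1 in 11 of 24 pairs (-0.108 to 0.367), and in 14 of 24 pairings an array was most like its own number, against 6 by chance, a hint from the data and not the design. With the replicate number as a block 10 members were higher in males, 10 in females and 18 over both sexes, where Orc1, Pola1, Rrm2 and Tk1 passed as well. The block also raised the probe sets past the threshold for strain from 5651 to 6145, so the rise was not confined to the members. The cause of these changes was not tested. The filter removed Rrm1.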
